A study of Mus musculus with 16 samples.

Results

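The vitamin D pathway was examined in flexor tendon through 5 of the 49568 gene symbols with counts: Cyp24a1, Vdr, Cyp27a1, Cyp27b1 and Rxra. The genes were taken by symbol, and Cyp24a1 was selected on its own measured values, the absence of counts in injured C57 tendon, so its levels in C57 mice are a description without a test. The data were bulk RNA-seq counts of the flexor tendon from male C57BL/6J (C57) mice, which form scar after tendon injury, and MRL/MpJ (MRL) mice, a strain known for scarless healing of several tissues. Each strain was sampled uninjured and 7 days post-injury (dpi), after the deep digital flexor tendon of a hind paw digit had been partially cut (50%), with 4 libraries in each of the 4 groups. The mice of both strains were 9 to 11 weeks old and bred by the study, and the sources used here name no other allele in any group. The study's methods describe ketamine and xylazine anesthesia and the analgesic buprenorphine for the surgery, so effects of these agents, of the skin incision and of the tendon cut cannot be told apart. The libraries held between 12552424 and 23741648 counts, and the MRL injured libraries were the deepest, at 18524170 or more. All 10 tendon markers listed for the check of the tissue, from Scx and Tnmd to Fmod, had counts in every group and together took between 1.45% and 6.96% of a library's counts.

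Vitamin D is a prohormone that becomes active after hydroxylation steps, of which the last is carried out by the enzyme encoded by Cyp27b1. The active hormone binds the vitamin D receptor (Vdr), which pairs with a retinoid X receptor such as Rxra and binds DNA at repeated half-sites. The enzyme encoded by Cyp24a1 inactivates the hormone and its precursor, and its gene is among those most strongly induced by the receptor, so that it is widely used as a readout of vitamin D signaling. Cyp27a1 encodes a mitochondrial sterol hydroxylase of bile acid synthesis that can also carry out the first activation step.

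A pair of uninjured libraries went against their strain labels. Among all genes, 3 had 5 CPM (counts scaled to the effective library size) or more in every injured C57 library and at most 3 counts in every injured MRL library, and 13 genes showed the opposite pattern. The uninjured C57 replicates 1 to 3 held all 3 genes of the first kind and 0 of the 13 at 1 CPM or more, and the uninjured MRL replicates 1 to 3 held 0 and 13. The library labelled C57 uninjured replicate 4 held 0 of the 3 and 13 of the 13, whereas the library labelled MRL uninjured replicate 4 held 3 and 0. The groups below follow the labels. The edgeR fold changes of the vitamin D genes are also given without these libraries, as are those of list genes in the injury comparisons where edgeR called them. The permutation test, the correlations between the vitamin D genes and, unless stated, the DESeq2 values use all libraries. The library labelled C57 uninjured replicate 4 stood apart in a further respect. The 12 epidermis markers took 6.42% of its counts and at most 0.0771% in any other library, and its Spearman correlation with any other uninjured C57 library was 0.837 or less. Among the injured C57 libraries, BI-181 held 6.07% of its counts in 12 skeletal muscle markers, against 0.199% in BI-183 and at most 0.00195% in all libraries other than these.

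Cyp24a1 (GRCm38, chr2:170482708-170497145, minus strand) had counts in every uninjured library and 0 counts in 6 of the 8 injured ones. In uninjured C57 tendon it had 191, 663, 70 and 302 counts, which are 12.9, 43.1, 5.47 and 19.8 CPM for replicates 1 to 4. In injured C57 tendon it had 0 counts in all 4 libraries, the pattern for which it was chosen. Across all genes tested in C57, 4.86% were lower in the injured group without overlap, and nothing is read from that beside a gene picked for it. The uninjured mean of 20.3 ± 16.3 CPM (SD, n = 4) was at least 106.5-fold higher than the mean of 0.191 CPM that 3 counts per library would give in the injured tendons. This lower bound covers counting error only and ran from 66.5-fold without uninjured replicate 2 to 132-fold without uninjured replicate 3. Without the library labelled C57 uninjured replicate 4 it was 105-fold.

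In uninjured MRL tendon Cyp24a1 had 692, 562, 382 and 236 counts, or 45.9, 40.9, 22.8 and 18.8 CPM, with a mean of 32.1 ± 13.3 CPM (SD, n = 4). After injury 2 of the 4 MRL libraries, BI-272 and BI-275, had 0 counts, BI-270 had 26 counts (1.07 CPM) and BI-274 had 161 counts (7.16 CPM). All injured MRL libraries thus lay below the lowest uninjured one. Across all genes tested in this comparison, 9.45% were lower without overlap between the groups. In edgeR's quasi-likelihood fit the log2 fold change of Cyp24a1 in MRL was -3.95 (SE 1.28, 95% confidence interval -6.85 to -1.05), with a p of 0.0130 and a Benjamini-Hochberg adjusted p of 0.0822 over all genes. It therefore did not pass the criteria for a differentially expressed gene (DEG), an adjusted p below 0.05 with a change of more than 1 on the log2 scale. An exact two-sided permutation test of the log2 CPM values, which averaged 4.91 in uninjured and -0.75 in injured libraries, gave p = 0.0286. That is the smallest p that the 70 arrangements of 4 against 4 allow, and groups without overlap fix it, so it adds nothing to the separation given above.

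The size of the difference in MRL tendon rested on a single library. Without BI-274, the injured MRL library with the most Cyp24a1, the log2 fold change was -6.34 with an adjusted p of 0.00801, and the gene was a DEG. Without any other single library it lay between -4.11 and -3.53, and the adjusted p lay between 0.0895 and 0.162. Without the library labelled MRL uninjured replicate 4 it was -4.11, with an adjusted p of 0.0895. Across strains the ranges met, since BI-274 (7.16 CPM) lay above uninjured C57 replicate 3 (5.47 CPM).

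**Figure D1:**
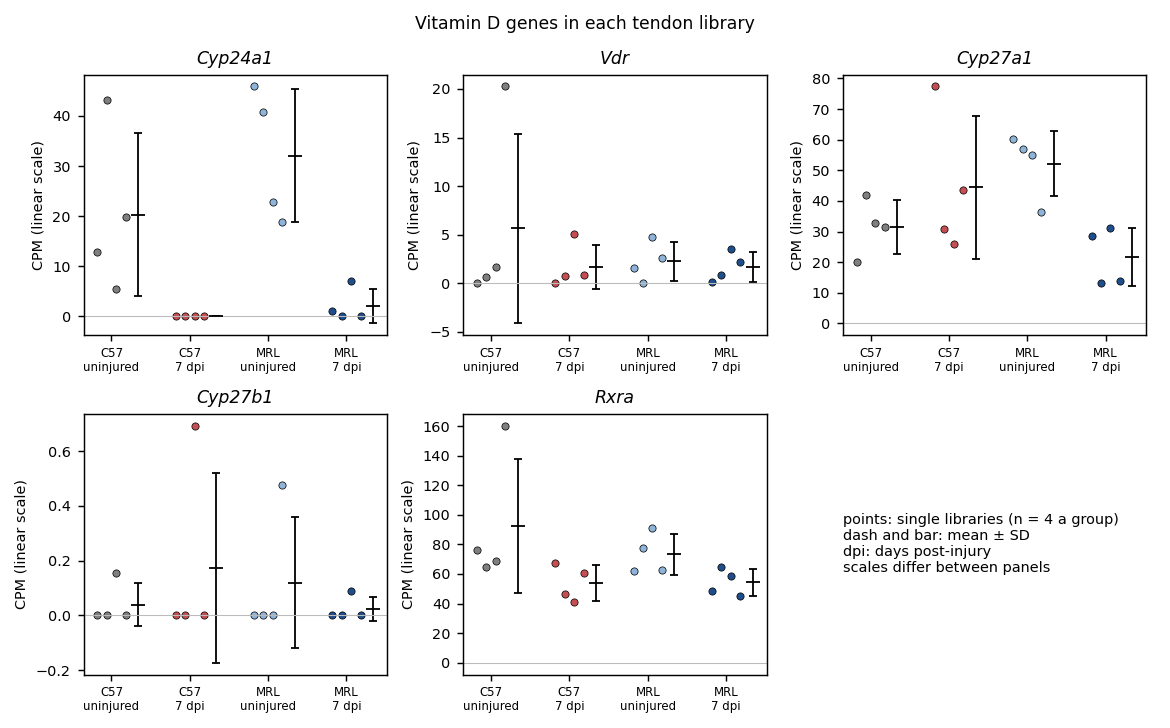
Levels of the 5 vitamin D genes in CPM on linear scales that differ between panels, with 1 point for each library of uninjured and injured (7 dpi) C57 and MRL tendon, and dashes with bars for mean ± SD (n = 4). Cyp24a1 lies at 0 in all injured C57 libraries and at 7.16 CPM or less in injured MRL libraries, and the single high points of Vdr (20.3 CPM) and Rxra (160 CPM) are the library labelled C57 uninjured replicate 4.

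Uninjured levels of Cyp24a1 overlapped between the strains, at 5.47 to 43.1 CPM in C57 and 18.8 to 45.9 CPM in MRL. Without the libraries whose genes went against their labels the means were 20.5 ± 19.9 CPM (SD, n = 3) in C57 and 36.5 ± 12.1 CPM (SD, n = 3) in MRL, and the ranges still overlapped. In injured tendon, C57 libraries held 0 counts in 4 of 4 and MRL libraries held counts in 2 of 4. No test of the strain difference of Cyp24a1 is given, since the injured C57 values chose the gene.

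The lower Cyp24a1 after injury was read from bulk tissue, in which fewer cells of a type and less RNA per cell cannot be told apart. The summed tendon markers overlapped between uninjured and injured tendon, at 16940 to 30025 CPM in uninjured and 18972 to 35454 CPM in injured C57 libraries, and at 25097 to 49069 and 34307 to 75405 CPM in MRL. Of the 10 markers, 5 had a lower mean after injury in C57 (Scx, Mkx, Fmod, Comp and Tnxb) and 4 in MRL (the same genes without Fmod), while the abundant Col1a1 and Col1a2 had higher means in both strains. The summed 10 hair follicle markers were lower as well, from 123 to 304 CPM in uninjured to 48.4 to 99.4 CPM in injured C57 libraries and from 281 to 420 CPM to between 120 and 245 CPM in MRL. Most of that sum came from Sox9, which tendon and cartilage cells also express (61.9% in uninjured C57 and 74.1% in uninjured MRL tendon), and the hair keratins Krt25, Krt27, Krt35 and Krt71 had no count in any library. The summed osteoblast markers, led by Ibsp, were lower in injured MRL (31.5 to 98.2 CPM) than in uninjured MRL tendon (89.5 to 237 CPM) with overlap. The part of these cells in the Cyp24a1 values was not tested.

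The reads of Cyp24a1 can be confused with those of 1 neighbour only in a short stretch. Pfdn4, which encodes a prefoldin subunit, lies on the opposite strand (chr2:170496428-170519123) and shares 83 exonic bases with Cyp24a1, and whether the counting used strand is not stated in the sources used here. Pfdn4 had 19.0 CPM in uninjured and 16.8 CPM in injured C57 tendon on average, and 18.3 and 34.5 CPM in MRL. Pfdn4 thus had counts in the injured C57 libraries in which Cyp24a1 had 0. The next genes to the lower coordinate side, Gm14269 and Bcas1, were near 0, with group means of 0.177 CPM or less and of 1.57 CPM or less. The next gene to the higher coordinate side, the antisense transcript Gm16796, had 7 counts in uninjured MRL tendon and 0 in the other groups.

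Vdr (GRCm38, chr15:97854425-97910630, minus strand), the receptor itself, was close to the detection limit in most libraries. It had 0, 10, 21 and 309 counts in uninjured C57 tendon, or 0, 0.650, 1.64 and 20.3 CPM for replicates 1 to 4. In uninjured MRL tendon it had 24, 0, 80 and 33 counts, or 1.59, 0, 4.78 and 2.63 CPM. One library held nearly all reads of the uninjured C57 group, the library labelled C57 uninjured replicate 4, which is also the library with the epidermis markers. Vdr is known to be active in keratinocytes, and the part of skin in this value was not tested.

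After injury Vdr had 0, 13, 80 and 12 counts in C57 tendon, or 0, 0.781, 5.04 and 0.83 CPM in the order BI-181, BI-183, BI-184, BI-185. In MRL tendon it had 2, 18, 79 and 40 counts, or 0.0824, 0.824, 3.51 and 2.22 CPM in the order BI-270, BI-272, BI-274, BI-275. The levels of injured libraries are listed in these orders throughout. The groups overlapped in every comparison. The log2 fold change with injury was -1.79 (SE 1.74, edgeR adjusted p = 0.677) in C57 and -0.44 (SE 1.24, adjusted p = 0.851) in MRL. The C57 value took the opposite sign, 1.12 with an adjusted p of 0.733, without the library labelled C57 uninjured replicate 4. The MRL value was -0.33 (adjusted p = 0.912) without the library labelled MRL uninjured replicate 4, and turned to 0.21 (adjusted p = 0.946) without uninjured MRL replicate 3. MRL minus C57 was -1.37 (SE 1.64, adjusted p = 0.851) in uninjured tendon and turned to 1.48 (adjusted p = 0.694) without both libraries that went against their labels. In injured tendon it was -0.05 (SE 1.30, adjusted p = 0.985), and it turned positive without BI-184 (1.55), BI-270 (0.40) or BI-272 (0.22), with adjusted p of 0.584 or more. The 95% confidence interval of that last difference with all libraries ran from -2.96 to 2.85, so differences of several fold in either direction lie within it.

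Rxra (GRCm38, chr2:27676440-27762957, plus strand), the partner of the receptor, was detected in every library. Its levels were 76.0, 64.6, 68.4 and 160 CPM in uninjured C57 and 67.5, 46.4, 41.2 and 60.8 CPM in injured C57 tendon. In MRL tendon they were 62.0, 77.3, 90.9 and 63.0 CPM before and 48.7, 64.4, 58.6 and 45.3 CPM after injury. The highest value of all was again in the library labelled C57 uninjured replicate 4, and the injured and uninjured ranges overlapped in both strains. The log2 fold change with injury was -0.79 (SE 0.33, adjusted p = 0.304) in C57 and -0.43 (SE 0.18, adjusted p = 0.143) in MRL, and neither passed the test. Without the library labelled C57 uninjured replicate 4 the C57 value was -0.37 (adjusted p = 0.326), and without the library labelled MRL uninjured replicate 4 the MRL value was -0.48 (adjusted p = 0.157). MRL minus C57 was -0.36 (SE 0.31, adjusted p = 0.786) in uninjured and -0.05 (SE 0.21, adjusted p = 0.923) in injured tendon. The uninjured difference was 0.13 (adjusted p = 0.747) without both libraries that went against their labels.

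**Figure D2:**
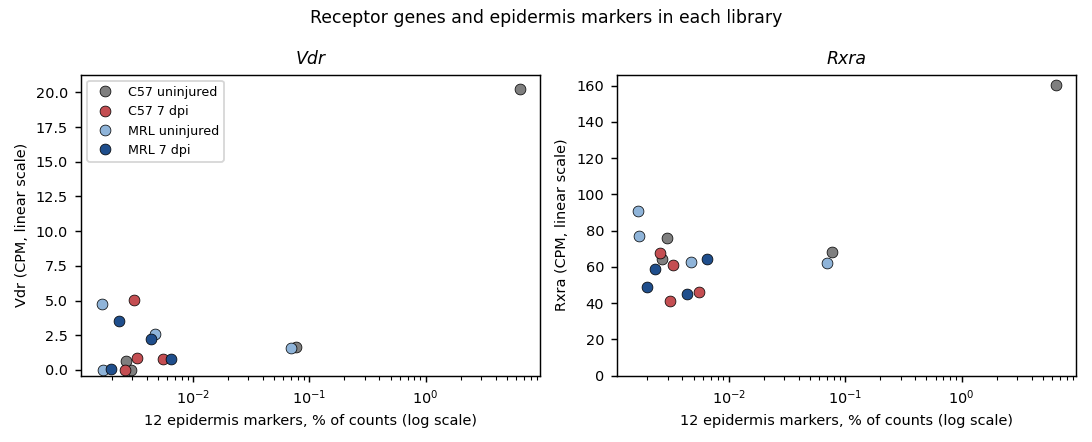
Vdr (left) and Rxra (right) in CPM on a linear scale against the share of counts in 12 epidermis markers on a log scale, with 1 point for each library coloured by group. The library labelled C57 uninjured replicate 4, at 6.42% of counts, has the highest Vdr (20.3 CPM) and the highest Rxra (160 CPM), while the other libraries lie at 0.0771% or less.

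Cyp27b1 (GRCm38, chr10:127048250-127053006, plus strand), the activating enzyme, had no counts in 12 of the 16 libraries. The remaining libraries were uninjured C57 replicate 3 with 2 counts (0.156 CPM), the library labelled MRL uninjured replicate 4 with 6 counts (0.478 CPM), injured C57 BI-184 with 11 counts (0.693 CPM) and injured MRL BI-274 with 2 counts (0.0889 CPM). The gene was filtered as too low in every comparison and has no test. A count of 0 allowed a level of up to 0.124 to 0.218 CPM, depending on the depth of the 12 libraries at 0, counting error only. BI-184 and BI-274 were also the libraries with the most Vdr in their groups, and BI-274 had the most Cyp24a1 of the injured libraries.

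Cyp27a1 (GRCm38, chr1:74713574-74737892, plus strand) was the only one of the 5 genes to pass the DEG criteria in the MRL injury comparison. Its levels in MRL tendon were 60.1, 57, 55.1 and 36.5 CPM before injury and 28.7, 13.3, 31.2 and 13.9 CPM after it. Every injured MRL library lay below every uninjured one, with means of 52.1 ± 10.7 and 21.8 ± 9.49 CPM (SD, n = 4 each). The log2 fold change was -1.25 (SE 0.31, 95% confidence interval -1.94 to -0.56) with an edgeR adjusted p of 0.0303. Of the 4 tested genes, 1 was thus a DEG. Among all 14274 genes tested in MRL tendon 7.41% were DEGs, 5.25% higher and 2.15% lower. The call was lost, with adjusted p up to 0.0839, when uninjured MRL replicate 1, 2 or 3 or the injured libraries BI-272 or BI-275 were left out, while the change stayed between -1.46 and -1.06. Without the library labelled MRL uninjured replicate 4, which had the lowest uninjured value, it was -1.37 with an adjusted p of 0.0380.

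In C57 tendon the fold change of Cyp27a1 had the opposite sign and did not pass the test. Its levels were 20.0, 41.8, 32.8 and 31.3 CPM before injury and 77.4, 30.8, 25.9 and 43.5 CPM after it, and the groups overlapped. The log2 fold change was 0.49 (SE 0.37, adjusted p = 0.577) and shrank to 0.12 (adjusted p = 0.920) without BI-181, the library with the muscle markers. It was 0.49 (adjusted p = 0.534) without the library labelled C57 uninjured replicate 4. The difference between the strains' responses was tested by the interaction term. It was -1.78 on the log2 scale (SE 0.51, 95% confidence interval -2.85 to -0.70), with an unadjusted p of 0.00295 and an edgeR adjusted p of 0.333, and so did not pass over all genes. None of the 15947 genes (0%) passed the interaction test in edgeR, although 1939 had an unadjusted p below 0.05, and DESeq2 called 221. DESeq2's adjusted p for Cyp27a1 was 0.0615. Without both libraries that went against their labels the interaction was -1.91 with an edgeR adjusted p of 0.279.

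Between strains, uninjured Cyp27a1 was 0.71 higher in MRL on the log2 scale (SE 0.25, adjusted p = 0.621) and did not pass the test. Without the 2 libraries that went against their labels, MRL replicates 1 to 3 lay between 55.1 and 60.1 CPM, all above the C57 replicates at 20.0 to 41.8 CPM, as were 12.8% of the 14274 genes tested there, higher in MRL without overlap. The difference was then 0.86 with an adjusted p of 0.0748. In injured tendon MRL minus C57 was -1.07 (SE 0.41, adjusted p = 0.174), with 31.2 CPM as the highest MRL and 25.9 CPM as the lowest C57 value. It was -0.67 (adjusted p = 0.371) without BI-181. No gene (0%) was a DEG between the uninjured strains in edgeR, 1106 genes had an unadjusted p below 0.05, DESeq2 called 104, and 497 were DEGs without the 2 libraries. Between injured strains 3.43% of the genes tested were DEGs, none of them among the tested vitamin D genes Vdr, Cyp27a1 and Rxra.

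**Figure D3:**
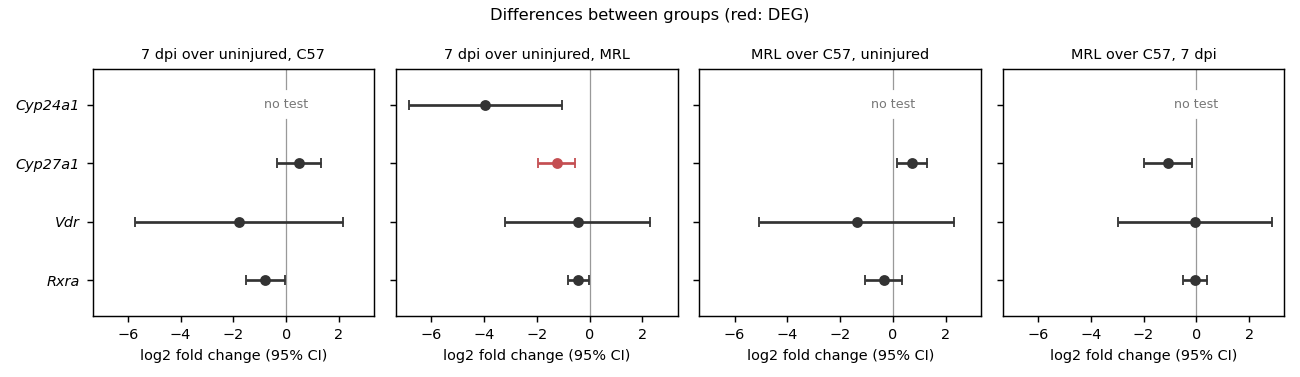
Log2 fold changes with 95% confidence intervals from edgeR for 4 vitamin D genes (Cyp27b1 was too low to test) in the comparisons of injured with uninjured tendon and of MRL with C57. Of the changes shown, only that of Cyp27a1 in MRL (-1.25, red) is a DEG. The intervals of Vdr span several log2 units on both sides of 0. Cyp24a1 is left out and marked as no test where a C57 group enters, since its injured C57 counts chose the gene.

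Per length of the merged exons, which allows levels of different genes to be set side by side, Rxra and Cyp27a1 were the most abundant of the 5 genes in uninjured tendon. In RPKM, which is CPM per kilobase of exon, the uninjured C57 means were 16.9 for Rxra, 14.5 for Cyp27a1, 5.71 for Cyp24a1, 0.998 for Vdr and 0.0152 for Cyp27b1. In uninjured MRL tendon they were 23.99 for Cyp27a1, 13.4 for Rxra, 9.02 for Cyp24a1, 0.398 for Vdr and 0.0464 for Cyp27b1. The C57 order of Rxra and Cyp27a1 rested on the library labelled C57 uninjured replicate 4. In the other 3 C57 libraries the mean of Cyp27a1 (14.5 ± 5.04 RPKM, SD) was above that of Rxra (12.8 ± 1.06 RPKM, SD), within the spread of the former, and Vdr averaged 0.135 RPKM. The MRL means without the library labelled MRL uninjured replicate 4 were 26.4 for Cyp27a1, 14.0 for Rxra, 10.3 for Cyp24a1, 0.376 for Vdr and 0 for Cyp27b1. In injured tendon Cyp24a1 averaged 0 RPKM in C57 and 0.578 RPKM in MRL, beside 0.294 RPKM for Vdr in each strain. The order of these genes in injured MRL tendon rested on BI-274, without which the means were 0.100 RPKM for Cyp24a1 and 0.184 RPKM for Vdr. The C57 mean of Vdr rested on BI-184 and was 0.0950 RPKM without it. The inactivating enzyme was therefore the third most abundant of the 5 transcripts before injury, while the receptor and the activating enzyme were the lowest.

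The region just before the start of Cyp27a1 is shown because this gene passed the DEG criteria and a vitamin D receptor half-site lies in it. Receptor pairs bind a direct repeat of half-sites spaced by 3 bases, and both strands of the 250 bases before each RefSeq start were searched for them. The consensus half-site was taken as AGGTCA. A further spelling, known from several target genes of the receptor, was AGTTCA. The search also took GGGTCA as a half-site. The last spelling taken was GGTTCA, and no other letters were allowed. The sequence is the plus strand of GRCm38.p6, chr1:74713285-74713534, from RefSeq, written 5′ to 3′, and the capitals mark its single half-site, 158 to 153 bases before the start.
Cyp27a1: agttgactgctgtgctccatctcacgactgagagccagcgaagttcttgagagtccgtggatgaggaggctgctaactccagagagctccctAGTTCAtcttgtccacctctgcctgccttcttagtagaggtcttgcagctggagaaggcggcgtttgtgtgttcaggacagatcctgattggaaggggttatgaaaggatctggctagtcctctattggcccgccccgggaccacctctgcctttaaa
Such a half-site was in 38.6% of all 32851 RefSeq promoters of that length, so its presence is common. The full repeat was in 0 of 58 promoters of the vitamin D genes and in 13 (0.0396%) of all promoters. Sequences were found for 4 of the 5 genes, Vdr, Cyp27a1, Cyp27b1 and Rxra, and for 46 of the 59 genes in the lists below.

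The wider pathway was described with 59 genes in 5 lists, namely the receptors and their partners, the enzymes and carriers, the receptor's coregulators, its known target genes and the regulators of Cyp27b1 and Cyp24a1. In C57 tendon 1 of the 42 genes tested (2.38%) was a DEG, which was Cyp24a1 itself, against 1.07% of all genes, 0.908% higher and 0.166% lower, and since Cyp24a1 chose the comparison nothing is read from that count. In MRL tendon 5 of 42 (11.9%) were DEGs, 3 higher and 2 lower, against 7.41% of all genes. The median log2 fold change of the tested list genes was -0.31 in C57 and -0.38 in MRL, beside -0.05 and -0.03 over all genes. These medians were -0.11 and -0.19, beside -0.0064 and -0.0085 over all genes, without the uninjured library labelled replicate 4 of the strain. Of the 10 coregulators, which include the mediator subunit Med1 and the p160 coactivators, 9 had a negative fold change in each strain (9 in C57 and 10 in MRL without those libraries), and none was a DEG in edgeR. DESeq2 called more genes in all. In MRL it called 7 of the 44 list genes with an adjusted p (15.9%), where edgeR called 5, beside 10.6% of all genes. In C57 it called 6 of 42, beside 5.5% of all genes. Cyp24a1, chosen on its injured C57 counts, is among the 6, and nothing is read from its call. The others in C57 were Thbd and S100g, which were lower, and Ifngr2, Slc8a1 and Rxrg, which were higher. Rxrg, a further retinoid X receptor, had 2, 0, 0 and 0 counts before and 322, 68, 0 and 88 counts after injury in C57, with overlap. The most were in BI-181, the library with the muscle markers, whose part in it was not tested. In MRL tendon Rxrg was higher after injury without overlap, as were 13.3% of all genes tested. Its log2 fold change there was 2.80 (SE 1.13, edgeR adjusted p = 0.137) and did not pass the test. The coactivator Ncoa3 was at -1.11 (DESeq2 adjusted p = 0.0271), a call lost without the library labelled MRL uninjured replicate 4 (-0.93, adjusted p = 0.105). The target gene Cst6, which encodes a cystatin, was at 2.07 (adjusted p = 0.0188) and at 2.49 (adjusted p = 0.00739) without that library. Rxrg, Ncoa3 and Cst6 were named, and the fit without that library was chosen, after the values were seen. The hormone carrier Gc, the calbindin gene Calb1, Fgf23, Slc34a1, Pth and Ifng had no counts in any library.

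Among the known target genes of the receptor, 1 of 10 tested was a higher DEG in MRL tendon and 1 a lower one, where 5.25% of all genes were higher and 2.15% lower. Thbd, which encodes the anticoagulant receptor thrombomodulin, had 723, 891, 777.1 and 816 CPM before and 252, 137, 288 and 60.3 CPM after injury in MRL. It fell without overlap, by 2.11 on the log2 scale (SE 0.40, edgeR adjusted p = 0.00931), and by 2.08 (adjusted p = 0.0268) without the library labelled MRL uninjured replicate 4. In C57 tendon Thbd had 688, 926, 607 and 400 CPM before and 162, 161, 308 and 252 CPM after injury, a log2 fold change of -1.58 (SE 0.32, edgeR adjusted p = 0.0567) that missed the threshold in edgeR and passed it in DESeq2 (-1.52, adjusted p = 0.00061). It was -1.75 (adjusted p = 0.00918) without the library labelled C57 uninjured replicate 4, whose level was the lowest of the group. The 6 endothelium markers, cells that express Thbd, had a summed level of 1.86 to 66.3 CPM in uninjured and 0.906 to 24.6 CPM in injured MRL tendon, and of 15.9 to 78.3 and 89.7 to 151 CPM in C57. Their part in the Thbd values was not tested.

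The other target gene called in MRL was Cd14, the lipopolysaccharide co-receptor of macrophages. It had 30.2, 44.7, 35.0 and 93.9 CPM before and 128, 114, 121 and 157 CPM after injury in MRL, a rise of 1.36 on the log2 scale (SE 0.33, edgeR adjusted p = 0.0275). The call was lost, with adjusted p up to 0.0782, in 6 of 8 fits with 1 library left out, and held without BI-274 and without the library labelled MRL uninjured replicate 4. Without the library labelled MRL uninjured replicate 4, the highest uninjured value, the change was 1.85 (adjusted p = 0.00353). In C57 tendon Cd14 had 76.9, 89.1, 110 and 32.8 CPM before and 112, 128, 190 and 136 CPM after injury, higher without overlap as were 7.11% of all genes tested in C57 and 13.3% in MRL. Its log2 fold change there was 0.87 (SE 0.34, adjusted p = 0.282) and did not pass the test. It was 0.62 (adjusted p = 0.133) without the library labelled C57 uninjured replicate 4. The interaction, 0.43 (adjusted p = 0.788), did not pass either.

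Among the regulators 2 of 9 tested genes rose and none fell in MRL, beside the same 5.25% and 2.15% of all genes. Of these 9 genes 5 had a negative fold change, and their median was -0.14. Ifngr2, a chain of the interferon gamma receptor, had 29.2, 30.5, 37.8 and 23.96 CPM before and 101, 112, 69.4 and 90.5 CPM after injury in MRL, a rise of 1.62 (SE 0.20, adjusted p = 0.00170). It was 1.54 (adjusted p = 0.00516) without the library labelled MRL uninjured replicate 4. In C57 tendon Ifngr2 had 46.2, 42.3, 28.1 and 41.1 CPM before and 90.5, 83.4, 78.4 and 62.7 CPM after injury, again higher without overlap. The log2 fold change there was 0.99 (SE 0.21, edgeR adjusted p = 0.0628) and missed the threshold in edgeR, while DESeq2 called the gene (1.04, adjusted p = 0.000928). Without the library labelled C57 uninjured replicate 4 it was 1.01 (edgeR adjusted p = 0.0287), which made Ifngr2 a DEG in C57. The interaction of strain and injury was 0.59 (edgeR adjusted p = 0.422) and did not pass the test, so a difference between the strains' rises was not shown.

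Tlr2, a receptor for bacterial lipoproteins, had 74.6, 80.8, 67.4 and 39.3 CPM before and 133, 213, 98.6 and 152 CPM after injury in MRL tendon. It rose by 1.20 on the log2 scale (SE 0.27, adjusted p = 0.0197), a call lost without uninjured replicate 3 (adjusted p = 0.0548) and without BI-272 (adjusted p = 0.0556). It was 1.03 (adjusted p = 0.0377) without the library labelled MRL uninjured replicate 4, which had the lowest level. The same gene was the only list gene that was a DEG in edgeR between injured strains, 1.13 higher in MRL (SE 0.27, adjusted p = 0.0474), beside 1.55% of all genes that were higher DEGs there, and injured C57 tendon had 43.5, 61.8, 76.1 and 80.2 CPM. That call was lost in 7 of 8 fits with 1 library left out, with adjusted p up to 0.112, and held without BI-274. In C57 tendon the log2 fold change of Tlr2 with injury was 0.44 (SE 0.43, edgeR adjusted p = 0.677), with overlap. The interaction was 0.70 (edgeR adjusted p = 0.649), so a difference between the strains' responses was not shown. DESeq2 called 7 of 47 list genes between injured strains (14.9%), Tlr2 among them, 4 higher and 3 lower in MRL, beside 8.15% of all genes. The summed level of the 10 macrophage markers, all detected in every group, was higher after injury as well, at 970 to 1603 CPM before and 3588 to 6347 CPM after it in MRL and at 777.1 to 1690 and 4803 to 8176 CPM in C57. Lyz2 alone made up 81.8% of that sum in injured MRL and 67.0% in injured C57 tendon. Of the 10 markers 5 were higher DEGs in edgeR in MRL (Adgre1, Cd68, Itgam, Lyz2 and Fcgr1), while Csf1r, C1qa, C1qb, C1qc and Mrc1 overlapped between the MRL groups. In C57 5 were higher DEGs (Adgre1, Cd68, C1qa, Mrc1 and Lyz2) and all 10 were higher without overlap. Of all genes tested, 5.25% in MRL and 0.908% in C57 were higher DEGs after injury, and 13.3% and 7.11% were higher without overlap. The part of macrophages in the rise of Cd14, Ifngr2 and Tlr2 was not tested.

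If the library labelled C57 uninjured replicate 4 is omitted, 6 list genes rather than 1 were DEGs in C57, namely Cyp24a1, Thbd, S100g and Cyp11a1, which were lower after injury, and Ifngr2 and Slc8a1, which were higher. Apart from Cyp24a1, which was chosen on this comparison, these were 5 of the 43 list genes then tested (11.6%). The DEGs among all genes rose in the same fit from 155 to 750, or 5.01%. Slc8a1, a sodium and calcium exchanger, had 1, 0, 1 and 0 counts before and 45, 32, 9 and 29 counts after injury in C57 tendon, and 0, 0, 25 and 1 counts after injury in MRL. Its log2 fold change in C57 without the library labelled C57 uninjured replicate 4 was 5.04 (edgeR adjusted p = 0.0348). With all libraries it was too low to test there in edgeR. The values of Slc8a1, S100g and Cyp11a1 were chosen after they were seen. S100g, which encodes a calcium-binding protein induced by vitamin D in the intestine, had 60.3, 65.0, 110 and 14.0 CPM before and 5.54, 5.11, 16.9 and 13.7 CPM after injury in C57 tendon. Its log2 fold change was -2.60 (SE 0.63, adjusted p = 0.0937), and without that library -2.93 (adjusted p = 0.0102). In MRL the change of S100g was -0.55 (edgeR adjusted p = 0.414), with overlap. MRL minus C57 in injured tendon was 1.67 (edgeR adjusted p = 0.0619), which DESeq2 called (adjusted p = 0.00419). The interaction was 1.99 (edgeR adjusted p = 0.357) and did not pass. Cyp11a1, the side-chain cleavage enzyme of steroid synthesis that also accepts vitamin D, had 52.7, 60.9, 46.4 and 0 CPM in uninjured and 11.96, 19.5, 13.3 and 8.42 CPM in injured C57 tendon. Its change was -1.59 (adjusted p = 0.565) and, without that library, -2.01 (adjusted p = 0.00544). In uninjured MRL tendon Cyp11a1 had 0, 0, 1.49 and 53.4 CPM, so the libraries labelled replicate 4 of the strains each held the level of the other strain.

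**Figure D4:**
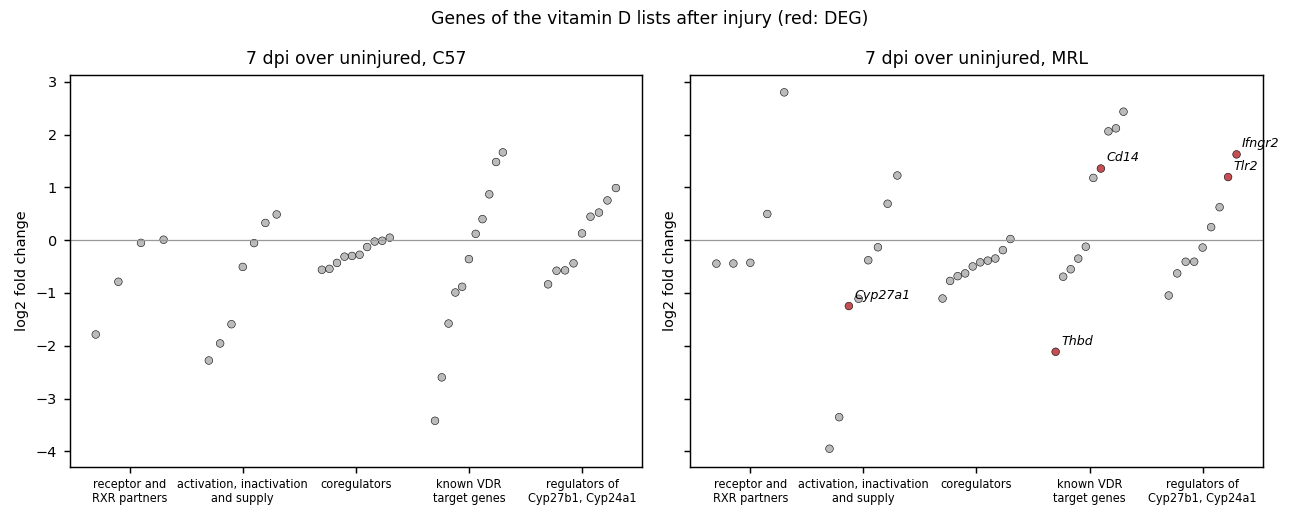
Log2 fold changes after injury (7 dpi over uninjured) for the tested genes of the 5 vitamin D lists in C57 (left, without Cyp24a1) and MRL tendon (right), 1 point a gene, red for DEGs in edgeR. The red points, Cyp27a1 and Thbd below 0 and Cd14, Ifngr2 and Tlr2 above 0, are all in MRL.

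The genes whose log2 CPM was most like that of Cyp24a1 over the 16 libraries were Wnk4 (Pearson r = 0.97), Zfp830 (0.95), Itpr3 (0.92), Fzd9 (0.92) and Setbp1 (0.91). These values describe the libraries, which differ by strain and injury together, and were picked as the highest of 15946 genes. Wnk4, a kinase that regulates ion transport, had 9.18, 11.2, 5.78 and 15.8 CPM in uninjured and 1.56, 1.74, 2.02 and 1.04 CPM in injured C57 tendon. In MRL tendon it had 29.7, 16.4, 18.8 and 13.1 CPM before and 5.15, 2.06, 7.51 and 1.11 CPM after injury. BI-274 was the highest injured library for Wnk4 as for Cyp24a1. Without the library labelled C57 uninjured replicate 4, 4 of the 5 genes were again the most alike, and by rank correlation 2 of the 5.

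The other vitamin D genes had other nearest genes. Those most like Cyp27a1 were Araf (r = 0.90), Trip10 (0.87) and Mtus1 (0.85), and those most like Rxra were Zswim1, Pgrmc2 and Stard10, with r between 0.91 and 0.92. Vdr was most like Gm42728 (0.82), Hlcs (0.76) and Vps26a (0.75), and Cyp27b1, with 12 libraries at 0, was most like Mcl1 (0.77), Gm14168 (0.75) and Arfgef2 (0.70). The nearest genes of Vdr and of Rxra rested on 1 library, since none of the 3 of either gene was again among its 3 nearest without the library labelled C57 uninjured replicate 4. The lists of the other genes moved too. For Cyp27a1 1 of 3 was again nearest without BI-181 and 1 by rank correlation, and for Cyp27b1 0 of 3 by rank correlation and 1 without the library labelled C57 uninjured replicate 4. Between the vitamin D genes themselves, Cyp24a1 had r = 0.10 with Vdr, 0.38 with Cyp27a1, -0.05 with Cyp27b1 and 0.56 with Rxra over the 16 libraries. The injured C57 values that chose Cyp24a1, all at 0 counts, enter each of these, so they are a description only.

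**Figure D5:**
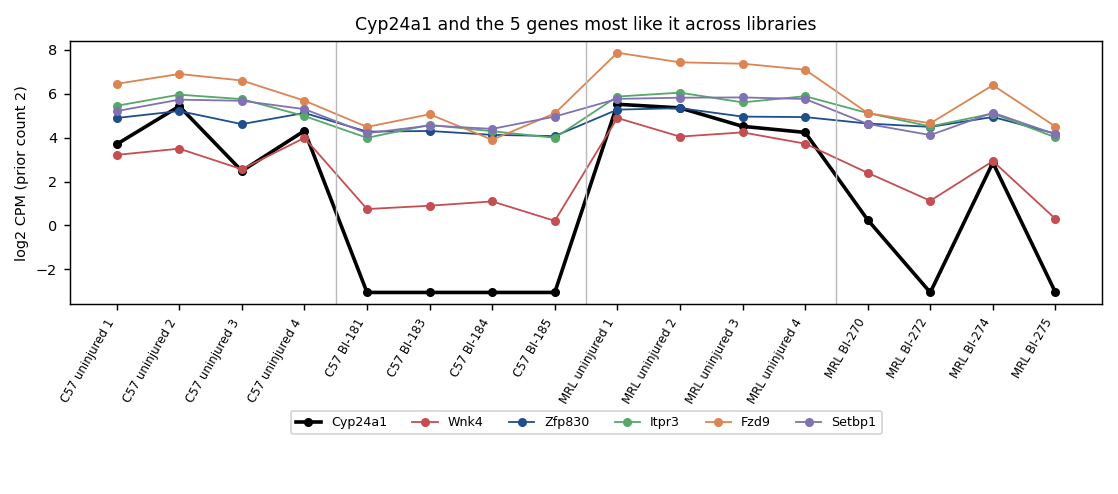
Log2 CPM of Cyp24a1 (thick black line) and of the 5 genes most like it, Wnk4, Zfp830, Itpr3, Fzd9 and Setbp1, across the 16 libraries in order of group. All 6 genes lie lower in the injured than in the uninjured libraries of each strain, except that a Zfp830 value of each MRL group is 4.94, and Cyp24a1 has 0 counts in 6 injured libraries.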

How the data were processed

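The authors deposited raw gene counts of 16 libraries, with 49568 symbols in a single table, neither normalized nor filtered. Per the labels' processing notes, reads were trimmed with Trimmomatic 0.36, aligned to GRCm38.p5 with STAR 2.5.2b and counted with Subread 1.5.0p3; the annotation and strand setting are not given in the sources used here. The study's methods describe amplified low-input RNA, and the labels an oligo-dT kit, so which protocol applies is open. The 5 genes and the gene lists were chosen with earlier results of these data known.

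Groups came from the labels, with 4 libraries each. Counts were tested with edgeR 4.0.16 (R 4.3.3; TMM, filterByExpr, robust quasi-likelihood) within each strain, between strains and for the strain by injury interaction on all 16 libraries, with Benjamini-Hochberg adjustment over all genes tested. A DEG had an adjusted p below 0.05 and a log2 fold change beyond 1; the interaction used the adjusted p alone. CPM used the effective library sizes of all 16 libraries, and log2 CPM a prior count of 2. A count of 0 was bounded at 3 counts. RPKM used merged GENCODE M21 exons, and coordinates are GRCm38. The p-values measure the spread between libraries, which the study describes as separate animals. The fits were tested on simulated data.

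Named genes were the 5 genes, DEGs of the lists, list genes at 0 in all libraries, the genes most like each of the 5, and neighbours of Cyp24a1 with counts. Rxrg, Ncoa3, Cst6, Slc8a1, S100g, Cyp11a1 and single marker genes were named outside this rule after their values were seen. Shares in DESeq2 are of the genes with an adjusted p. The check of strain labels, the per-marker counts of macrophages, the injured RPKM without single libraries, and the list values and share of separated genes without the libraries it singled out, were chosen after seeing the data. Alternatives were DESeq2 1.42.0, other size factors, other filters and leaving out libraries.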

Additional observations from a re-analysis of the deposited data

Results flagged for a closer look

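In 8 of 35 groups of 4 libraries, each for 1 gene, a single library lay so far above the rest that the gap passed Dixon's 95% limit. Chance flags about 1 in 20 groups where values follow a normal distribution. That was not checked for these CPM values, so the number flagged is not set against chance. The rate does not hold for the 4 groups of Cyp27b1, in which the other 3 libraries had 0 counts. Cyp24a1 was at 7.16 CPM in injured MRL BI-274, with 1.07 CPM as the next value. Vdr was at 20.3 CPM in the library labelled C57 uninjured replicate 4, next to 1.64 CPM, and at 5.04 CPM in injured C57 BI-184, next to 0.83 CPM. Rxra was at 160 CPM in the library labelled C57 uninjured replicate 4, next to 76.0 CPM. Cyp27b1 passed the limit in all 4 groups for that reason, at 0.156 CPM in uninjured C57 replicate 3, 0.478 CPM in the library labelled MRL uninjured replicate 4, 0.693 CPM in BI-184 and 0.0889 CPM in BI-274.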

How the results depend on the processing

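Of the recomputed values, 357 kept their direction and side of the threshold or moved by less than the limits used, 20 lost and 4 gained a call, 17 changed sign and 49 moved. The causes were not tested. DESeq2 called 911 DEGs in C57, where edgeR called 155, with 6 rather than 1 in the vitamin D lists, Cyp24a1 included in both. It called 1808 rather than 1057 in MRL, with 7 rather than 5 in the lists, 104 rather than 0 between uninjured strains, 1473 rather than 502 between injured strains with 7 rather than 1 in the lists, and 221 rather than 0 in the interaction. Without a filter on low counts 1 gene was a DEG between uninjured strains. DESeq2 and edgeR gave Cyp27a1 in MRL the same change, -1.25, and Cyp24a1 in MRL -3.97 and -3.95.

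With 1 library left out in turn, DEGs numbered from 10 (without uninjured C57 replicate 3) to 750 (without the library labelled C57 uninjured replicate 4) in C57, from 689 (without uninjured MRL replicate 1) to 1260 (without BI-274) in MRL, from 0 to 3 between uninjured strains and from 231 (without BI-185) to 481 (without BI-274) between injured strains. In the vitamin D lists they numbered 0 to 6, 2 to 6, 0 and 0 to 2. The change of Cyp24a1 in MRL ran from -6.34 to -3.53 and that of Cyp27a1 from -1.46 to -1.06. Vdr changed sign in every comparison, from -3.37 to 1.12 in C57, -1.10 to 0.21 in MRL, -1.98 to 1.57 between uninjured strains, -0.67 to 1.55 between injured strains and -1.63 to 2.86 in the interaction. Rxra ran from -0.48 to 0.07 between uninjured strains, from -0.16 to 0.085 between injured strains and from -0.10 to 0.45 in the interaction. Without both libraries that went against their labels, 497 genes were DEGs between uninjured strains, Vdr was 1.48 and Rxra 0.13 there, and the interaction was -1.54 for Vdr and -0.16 for Rxra.

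The replicate numbers of the uninjured groups do not pair animals, and same-numbered libraries did not deviate together (r between -0.26 and 0.02). A replicate block left 0 DEGs between uninjured strains, with -0.28 for Vdr, 0.73 for Cyp27a1 and -0.25 for Rxra. Few counts in most libraries limit what can be said of Vdr and Cyp27b1.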
